A study of Zea mays with 6 samples.

Results

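miR160 is a plant miRNA family that guides the cleavage of mRNAs of auxin response factors (ARFs), the transcription factors that read the auxin signal. It was followed here in ovaries of the maize inbred line Yu-A474 together with its listed targets. Its guide strands are the entries of family 160 whose names do not carry the 3p arm, and they are 3 of the 161 known miRNAs with values in the small RNA libraries. Its targets are the degradome entries of miR160 that carry the ARF family or an auxin response factor annotation. They come to 5 of 471 entries, which stand for 3 cleavage sites on 2 of 113 listed genes, GRMZM2G159399 and GRMZM2G005284. No entry of miR160 named any other gene.

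Yu-A474 ears bear completely fused carpel (CFC) ovaries, which the sample labels call wild-type, beside incompletely fused carpel (IFC) ovaries, in which the carpel walls do not close. Both phenotypes thus share one genotype, and the ovaries came from the middle of ears bagged before silking, taken at 0 days after silking, with no pollination and no treatment. The IFC ovaries were taken close to CFC ovaries of the same ear. The 4 small RNA libraries were 2 of CFC and 2 of IFC ovaries, taken as biological replicates from different ear rows. The degradome, a survey of the 5′ ends of cleaved mRNAs, was sequenced from 1 library per phenotype that mixed the 2 biological samples, so it has no replicates. The ovaries were whole organs, and more cells that make a small RNA cannot be told apart from more of it per cell.

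In Arabidopsis, miR160 targets ARF10, ARF16 and ARF17, which are counted among the ARFs that repress auxin-responsive genes. A miRNA guide pairs with the mRNA, and the mRNA is cut opposite bases 10 and 11 of the guide. The auxin pathway holds further miRNAs. miR167 targets activating ARFs of the ARF6 and ARF8 type, miR393 targets the F-box auxin receptors, and miR390 triggers the tasiRNAs that target ARF3 and ARF4. GRMZM2G159399 and GRMZM2G005284 were both annotated in the deposited table as auxin response factor 16. In the RefSeq gene table of Zm-B73-REFERENCE-NAM-5.0, GRMZM2G159399 has the name ARF17, and GRMZM2G005284 had no match there. Of the 6 gene IDs of the auxin pathway named here, 4 matched in that table.

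The sequences of the guide strands are shown because they differ only at the 5′ end, which sets where the mRNA is cut. Bases 2 to 8, the seed, are in capitals, and the sequences are written as DNA, 5′ to 3′.
zma-miR160a-5p: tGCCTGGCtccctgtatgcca
osa-miR160a-5p_L+1: cTGCCTGGctccctgtatgcca
cca-miR160b_L+3: aTCTGCCTggctccctgtatgcca
The first is 21 nt long, and the others are the same 21 bases with 1 and 3 more bases at the 5′ end. The longer strands therefore had shifted seeds, and none of the 3 shared a seed with another. The degradome table also lists zma-miR160f-5p_1ss21GA, which has the same 21 bases as zma-miR160a-5p and has no row of its own in the expression table. The 3p arm was listed as 5 sequences, which differ from each other at a few bases. They are shown to give their shared seeds, again with bases 2 to 8 in capitals.
zma-miR160a-3p: gCGTGCAAggggccaagcatg
zma-miR160b-3p: gCGTGCAAggagccaagcatg
zma-miR160c-3p: gCGTGCATggtgccaagcata
zma-miR160f-3p_R+1_1ss16GA: gCGTGCGAggtgccaagcatgg
osa-miR160d-3p: gCGTGCGAggagccaagcatg
zma-miR160a-3p and zma-miR160b-3p shared a seed, as did zma-miR160f-3p_R+1_1ss16GA and osa-miR160d-3p, and zma-miR160c-3p stood alone.

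The table placed the family on 5 hairpins, at chr6:9147415-9147514 and chr6:91612995-91613080 on the plus strand, chr2:237695429-237695544 on the minus strand, chr4:236951267-236951370 on the plus strand and chr5:43049664-43049758 on the minus strand. The genome build of these positions is not given in the sources used here. Which gene, exon or intron each position falls in was not looked up. The 21-nt guide was found without a difference in 4 of the 5 hairpins, so its level cannot be assigned to one of them. 2 of the hairpins are shown, the one to which zma-miR160a-5p was assigned and the one that differs, with the 5p arm and any exactly matched 3p arm in capitals.
chr6:9147415-9147514: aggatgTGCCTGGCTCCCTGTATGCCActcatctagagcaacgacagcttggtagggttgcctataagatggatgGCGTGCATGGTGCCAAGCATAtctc
chr2:237695429-237695544: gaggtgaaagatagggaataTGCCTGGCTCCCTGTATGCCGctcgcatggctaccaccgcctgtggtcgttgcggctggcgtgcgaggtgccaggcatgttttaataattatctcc
Positions are counted from 1 at the 5′ end of the small RNA, with the base of the hairpin first and that of the small RNA last. Against the chr2 hairpin the guide had the single substitution G21A. The base before the 5p arm was G in 3 hairpins and A in 2, and was C in none. Both longer guide strands carried C there. The 22-nt strand had the substitution G1C or A1C against the 4 hairpins that match the rest of it, and the 24-nt strand had G3C against the chr6:9147415-9147514 hairpin, its closest match.

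The 21-nt guide was by far the main form of miR160. Normalized expression (NE, in RPM, scaled to the clean reads of each library) of zma-miR160a-5p was 212 and 76.7 in CFC replicates 1 and 2, and 72.0 and 107 in IFC replicates 1 and 2. CFC replicate 1 stood above the other 3 libraries, and the IFC values lay on either side of that of CFC replicate 2, so the phenotypes overlapped. The mean was 144 ± 95.4 in CFC and 89.5 ± 24.9 in IFC (SD, n = 2 each). The log2 fold change, IFC minus CFC, on the log2(NE + 1) scale was -0.53 with a standard error of 0.82 and a 95% interval from -2.28 to 1.21 (limma, adjusted p = 0.999). Without CFC replicate 1 the sign turned and the log2 fold change was 0.19. Its mean NE over the 4 libraries ranked 25th of the 161 known miRNAs.

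The 22-nt strand was high in 1 library only. NE of osa-miR160a-5p_L+1 reached 15.4 in CFC replicate 1. It was 1.32 in the other CFC library, and IFC replicates 1 and 2 had 0.573 and 2.09. The commonest of the lowest NE values of a library, taken as that of 1 read, lay between 0.717 and 1.15, and 3 reads would give an NE of 2.15 to 3.44. The library totals this reading implies are below the valid reads that the methods and text of the study give, so the step may stand for more than 1 read. On this reading CFC replicate 1 was the only library in which this strand exceeded 3 reads. The log2 fold change was -1.48 with a standard error of 0.94 (limma, adjusted p = 0.999), and it was -0.07 without CFC replicate 1. The 22-nt strand made up 6.75% and 1.67% of the summed guide NE of CFC replicates 1 and 2, and 0.783% and 1.89% of that of IFC replicates 1 and 2.

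The 24-nt strand had the lowest mean NE of the guide strands. NE of cca-miR160b_L+3 was 1.43 and 0.879 in CFC and 0.573 and 1.67 in IFC. Each value was below the NE taken above as that of 3 reads, which may stand for more reads. The log2 fold change of -0.06 had a standard error of 0.79 (limma, adjusted p = 0.999), and no direction can be read from it.

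**Figure D1:**
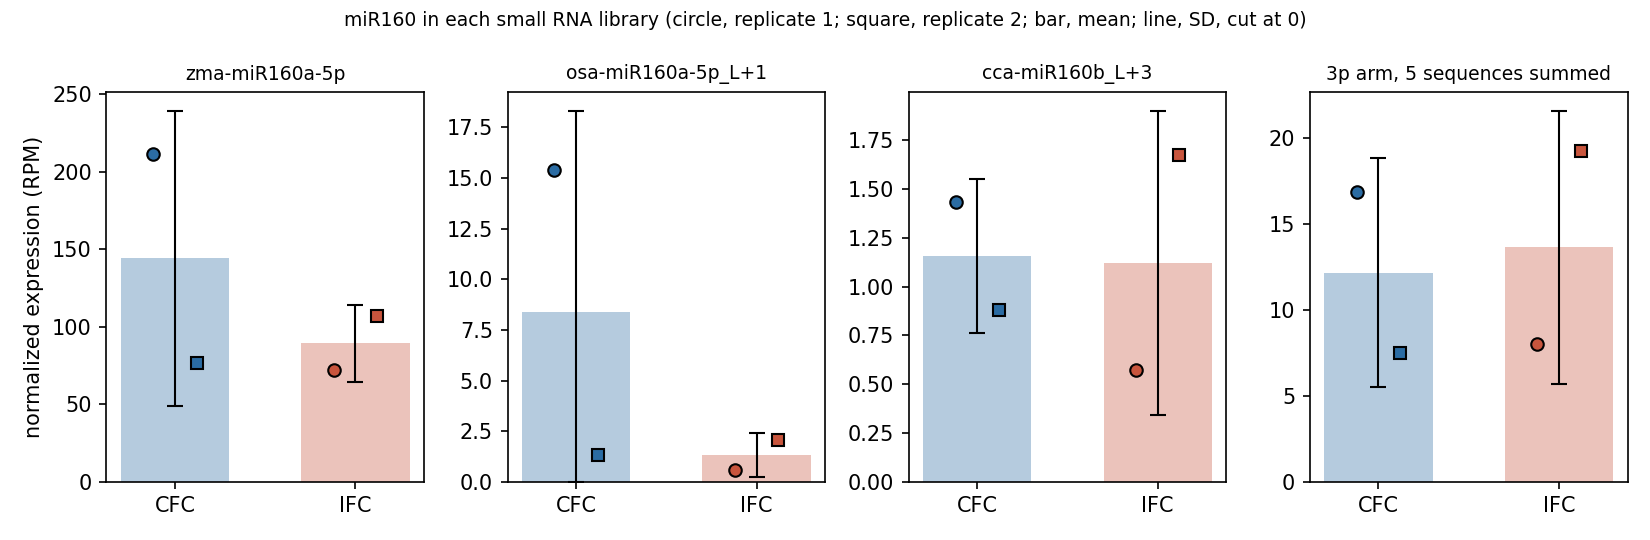
NE in RPM (y axis, from 0, a separate scale in each panel) of the 3 miR160 guide strands and of the summed 3p arm, in CFC and IFC ovaries. Points are single libraries, bars the mean and lines the SD, cut at 0. CFC replicate 1 is the highest point for zma-miR160a-5p (212) and for osa-miR160a-5p_L+1 (15.4), and the IFC points overlap the CFC points in every panel.

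The 3 guide strands summed to 228 and 78.9 in CFC and to 73.1 and 111 in IFC. The IFC to CFC ratio of the mean sums was 0.599, and it was 1.17 without CFC replicate 1. Set against all known miRNAs of the library, the guide sum was 0.812% and 0.279% in CFC and 0.380% and 0.417% in IFC, again with overlap. Of the 145 known miRNAs tested, limma called 0% (adjusted p under 0.05), and 1 had an unadjusted p under 0.05. None of the 3 guide strands had both IFC values on one side of both CFC values. Among all 145 tested, both IFC values lay below both CFC values for 14.5% and above them for 8.28%.

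The 3p arm, the partner strand that is mostly discarded, was far lower than the guide. The 5 sequences summed to 16.9 and 7.47 in CFC and to 8.02 and 19.2 in IFC. The phenotypes overlapped. zma-miR160f-3p_R+1_1ss16GA had the highest mean of them, at 11.5 and 1.76 in CFC and 4.58 and 9.21 in IFC. zma-miR160b-3p followed, at 4.30 and 3.95 in CFC and 1.15 and 5.86 in IFC, and was above it in CFC replicate 2. Its sequence occurs in both the chr6:91612995-91613080 and the chr5 hairpin. zma-miR160a-3p, from the chr4 hairpin, was the only miR160 sequence whose IFC values, 2.29 and 3.35, both exceeded the CFC values, 0.717 and 1.76. On the reading above these are 2 and 4 reads against 1 and 2, so only IFC replicate 2 exceeded 3 reads, and CFC replicate 2 and IFC replicate 1 had equal reads. zma-miR160c-3p, from the hairpin to which the guide was assigned, was listed at 0 in 3 libraries and at 0.837 in IFC replicate 2. osa-miR160d-3p was listed at 0.359 in CFC replicate 1 and at 0 elsewhere. These last values are below that of 3 reads.

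The guide sum exceeded the 3p sum 13.6-fold and 10.6-fold in CFC replicates 1 and 2, and 9.12-fold and 5.76-fold in those of IFC. Both IFC ratios were below both CFC ratios. The 2 sums come from the same libraries, the ratio was looked at after the levels were known, and it was not tested.

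In the degradome, cleavage of GRMZM2G159399 was the strongest signal of the whole table. The main site, at base 1796 of transcript GRMZM2G159399_T01, had a signal of 66723 TPB in CFC and 52379 TPB in IFC, where TPB is the number of tags at a site scaled to the reads of the library and split where tags match several transcripts. The values of the miR160 sites were whole tags. From the TPB of entries with a single raw tag, 1 tag was worth 59.9 TPB in CFC and 59.1 TPB in IFC, so these values stand for 1113 and 886 tags. The site ranked first of 208 pairs of gene and site in both libraries and carried 40.2% of the summed TPB of all pairs in CFC and 40.4% in IFC. A pair took the TPB of 1 transcript where several transcripts of a gene shared its base. This lowers the sum and raises the share of the main site, which is listed on a single transcript. A cut at different bases of several transcripts made several pairs. The main site exceeded the next site, in the growth-regulating factor gene GRMZM2G033612 cut under miR396, by 3.73-fold in CFC and 4.84-fold in IFC. The third site, in the NAC gene GRMZM2G063522 cut under miR164, had 12170 TPB in CFC and 9932 TPB in IFC.

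In the peak classes of CleaveLand, the main site was of category 0, the single highest peak of its transcript, in both libraries, with CleaveLand p-values of 0.00889 in CFC and 0.00866 in IFC. The pairing region ran from base 1785 to 1805 with an alignment score of 1, where a lower score means fewer mismatches. The median score over all pairs was 3.5, and 9 of 208 pairs scored 1 or lower. The cut lay opposite base 10 of the 21-nt guide. So did 80.8% of the 317 distinct combinations of transcript, site and pairing region listed, each for its own miRNA.

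A minor site, at base 1797 of GRMZM2G159399_T01, was listed for the 22-nt strand alone. It had 1079 TPB in CFC and 946 TPB in IFC, or 18 and 16 tags, and ranked 19th and 16th. It was of category 2, below the highest peak of the transcript but above its median, with p-values of 0.555 in CFC and 0.534 in IFC and an alignment score of 2. The cut again lay opposite base 10, here of the 22-nt strand, which is opposite base 9 of the 21-nt guide. The 2 sites are neighbouring bases of one transcript. The minor site held 1.59% of the tags at both sites in CFC (exact Clopper-Pearson 95% interval 0.946% to 2.50%) and 1.77% in IFC (1.02% to 2.86%). These shares lay within each other's intervals, while the 22-nt strand's share of the guide NE ran from 0.783% to 6.75% over the small RNA libraries. Each degradome library mixed the replicates that the small RNA libraries hold apart. By mean NE of the phenotype, the 22-nt strand had 8.37 of a guide sum of 154 in CFC and 1.33 of 92.0 in IFC. The CFC mean rests mostly on replicate 1.

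GRMZM2G005284 carried the same annotation and gave a far weaker signal. Its only listed site, at base 1418 of GRMZM2G005284_T01, had 120 TPB in CFC and 177 TPB in IFC, which is 2 and 3 tags. The pairing region ran from base 1407 to 1427, with an alignment score of 1 and the cut opposite base 10, as at the main site of GRMZM2G159399. It was of category 0 in CFC and of category 1, a maximum shared with another position, in IFC, with CleaveLand p-values of 0.00889 and 0.00968. The main site of GRMZM2G159399 had 557 times as many tags in CFC and 295 times as many in IFC. With so few tags at GRMZM2G005284, the exact 95% interval of that ratio ran from 154 to 4601 in CFC and from 101 to 1435 in IFC. The degradome counts cut ends, and the amount of uncut mRNA of either gene was not measured in these libraries.

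**Figure D2:**
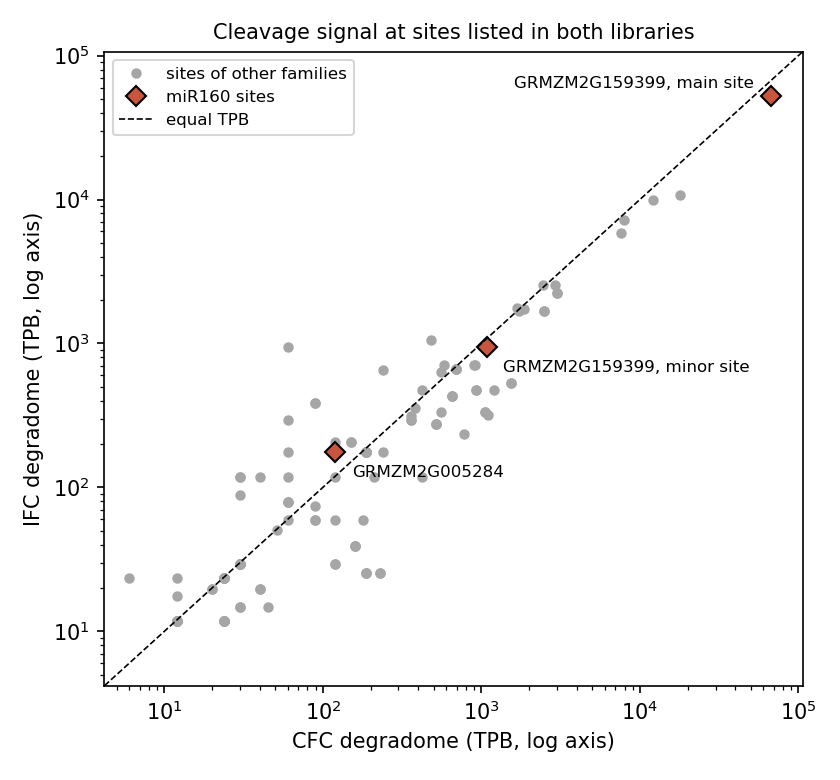
TPB in the IFC degradome (y axis, log) against the CFC degradome (x axis, log) for the 125 pairs of gene and site with a signal in both libraries. The main site of GRMZM2G159399 (66723 and 52379 TPB) lies apart from every other point at the upper right, and GRMZM2G005284 lies in the cloud of sites with few tags.

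Between the phenotypes, the main site of GRMZM2G159399 was lower in IFC, and the difference exceeded the counting error of the 2 libraries. The IFC to CFC ratio of TPB was 0.785, with an exact conditional 95% interval from 0.718 to 0.858 that covers counting error only. The sum over all 208 pairs was lower in IFC by nearly the same ratio, 0.781, and over the pairs of the other miRNA families the ratio was 0.776. When TPB was rescaled to the sum over all pairs, of which the main site itself is a large share, its ratio was 1.01. When TPB was rescaled so that the median ratio over the pairs was 1, it was 0.837. The ratio was 0.877 (0.418 to 1.82) at the minor site and 1.48 (0.169 to 17.7) at GRMZM2G005284, both intervals that include 1. Across the 125 pairs with a signal in both libraries, the median ratio was 0.938, 35.2% were at least 1.5-fold lower in IFC and 12.0% at least 1.5-fold higher. As deposited, none of the 3 miR160 sites passed 1.5-fold in either direction. Under the 3 rescalings GRMZM2G005284 did, at ratios of 1.58, 1.89 and 1.91, but these rest on 3 and 2 tags. Among the 15 pairs with at least 16 tags in both libraries the ratios ran from 0.606 to 1.06, and 13 of them were lower in IFC. Both the 125 and the 15 pairs include miR160 sites. They also include pairs of the same gene with equal values at different bases of its transcripts, so they are not all separate measurements.

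By family, the miR160 sites together held 40.9% of the summed TPB in CFC and 41.3% in IFC, first of 21 families, with 3 sites on 2 genes. miR396, the next family, held 19.2% and 15.8% with 31 pairs of gene and site on 10 genes. Several of these pairs hold the same values at different bases of several transcripts of a gene, so they are not 31 separate cuts. The way pairs were counted also raises the miR160 share. In the small RNA libraries, miR160 ranked 14th of 33 families by NE over both arms, at a mean of 0.522% of the known miRNAs. NE and TPB are different measures of different RNAs, and the 2 orders are given side by side as a description.

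The other auxin targets gave much weaker degradome signals than GRMZM2G159399. The miR393 site of the auxin signaling F-box genes GRMZM2G137451 and GRMZM5G848945 was listed on 3 transcripts, each at 520 TPB in CFC and 276 TPB in IFC. The 3 values of a library were equal, and summed over the transcripts they came to 26 tags in CFC and 14 in IFC. The ratio was 0.531 with an interval from 0.256 to 1.05. The miR167 sites of GRMZM2G475882 and GRMZM2G078274 were listed on 5 transcripts. These transcripts carried the annotation auxin response factor 6, except GRMZM2G078274_T02, which carried auxin response factor 8. The maize RefSeq table names the genes ARF30 and ARF3, numbers that differ from these annotations. The sum over the 5 transcripts was 2 tags in CFC and 1 in IFC, with a ratio of 0.493 (0.00836 to 9.47). Over all its listed sites, 7 pairs of gene and site on 5 genes, miR167 had 226 TPB in CFC and 254 TPB in IFC. The sites listed for miR390 lay on 3 genes, none of them annotated as an auxin gene.

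**Figure D3:**
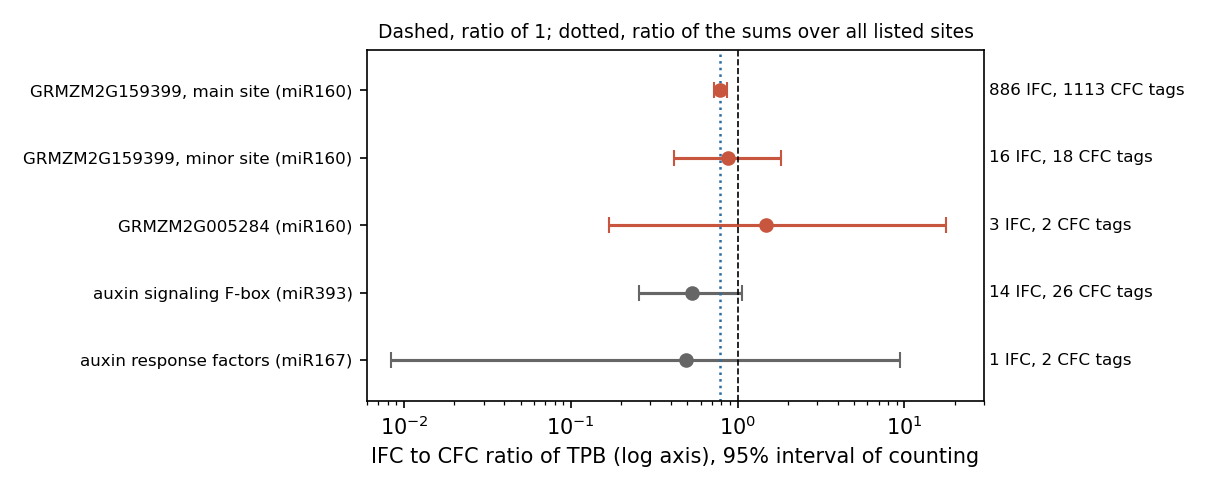
IFC to CFC ratio of TPB (x axis, log) with exact 95% intervals of counting error, for the 3 miR160 sites and for the summed miR393 and miR167 sites on auxin genes, with the tags of each library at the right. The dotted line is the ratio of the sums over all listed pairs, 0.781, on which the main site (0.785) falls, and the intervals of the other 4 include the ratio of 1.

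The guide strands of the other auxin miRNAs were low in IFC by their estimates, and none passed the test. Of the 6 guide strands of miR167, miR390 and miR393, 6 had a negative log2 fold change with a median of -0.82, beside 74 of all 145 known miRNAs with a median of -0.02. NE of zma-miR390a-5p was 447 and 337 in CFC and 181 and 221 in IFC. Both IFC values were below both CFC values, and the log2 fold change was -0.95 with a standard error of 0.78 (limma, adjusted p = 0.999). zma-miR167e-5p had 23.8 and 13.5 in CFC and 9.16 and 9.51 in IFC, also without overlap, which made 2 of 6 against the 14.5% of all tested. NE of zma-miR393a-5p_R-1 was 36.3 in CFC replicate 1, and 3.51 in its other replicate. The IFC ovaries had 5.35 and 4.32. As for the 22-nt strand of miR160, CFC replicate 1 stood alone. The other 3 strands of miR167 overlapped, zma-miR167a-5p between 7.53 and 34.7, tae-miR167c-5p between 1.72 and 8.35 and bdi-miR167a_1ss21AT between 0 and 2.86.

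CFC replicate 1 was the highest of the 4 libraries for 6 of the 9 auxin guide strands, miR160 included, beside 42 of 145 known miRNAs (29.0%). Without it, 1 of the 3 miR160 strands and 4 of the other 6 kept a negative log2 fold change. When NE was scaled to the sum of known miRNAs, the median log2 fold change of all 145 moved from -0.02 to 0.24 and the split from 74 lower and 71 higher to 57 lower and 88 higher. In that scaling 2 of the 3 miR160 strands and 5 of the other 6 stayed negative. Over all known miRNAs it was the IFC libraries that stood apart, with a median log2 difference from the other 3 libraries of -0.46 in IFC replicate 1 and 0.28 in IFC replicate 2, beside 0.07 in CFC replicate 1. Without IFC replicate 1, 61 of the 145 were lower and 81 higher in IFC, and without IFC replicate 2, 96 were lower and 48 higher. In these fits 2 and 3 of the miR160 strands, and 6 and 5 of the other 6, were negative. The part of these differences between libraries in the results was not tested.

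**Figure D4:**
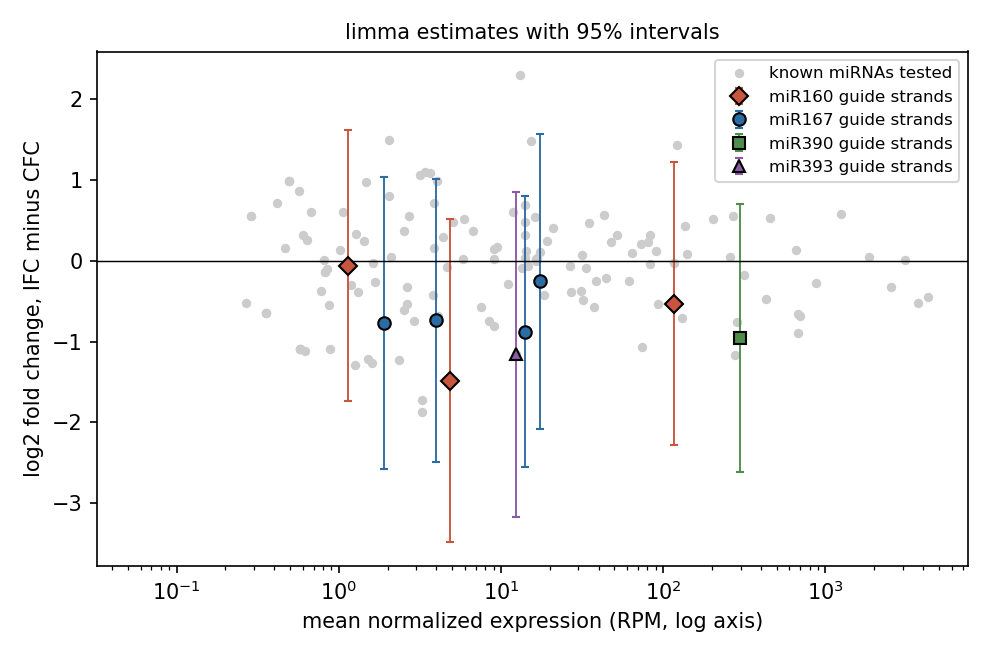
Log2 fold change, IFC minus CFC, on the log2(NE + 1) scale (y axis) against mean NE in RPM (x axis, log) for the 145 known miRNAs tested, with the guide strands of miR160, miR167, miR390 and miR393 marked and their 95% intervals from limma. The 9 marked strands lie below 0, and each interval includes 0.

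The profile of zma-miR160a-5p over the 4 libraries was compared with those of 69 known miRNAs of other families with an NE above 1 in every library and a mean above 10. The measure was the root mean square difference of log2(NE + 1), each centred on its own mean, and its median over the 69 was 0.71. The nearest was zma-miR528a-5p at 0.16, with NE of 62.0 and 29.9 in CFC and 24.6 and 33.5 in IFC. Next came zma-miR159c-3p_L-1R-1 at 0.23, osa-miR396e-3p_L-3 at 0.24, zma-miR169a-5p at 0.27 and zma-miR166j-3p at 0.27. Each of these 5 was highest in CFC replicate 1, as zma-miR160a-5p was. They were chosen for their likeness to it, so this is not a separate result. With 4 libraries the likeness is a description of these libraries only.

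**Figure D5:**
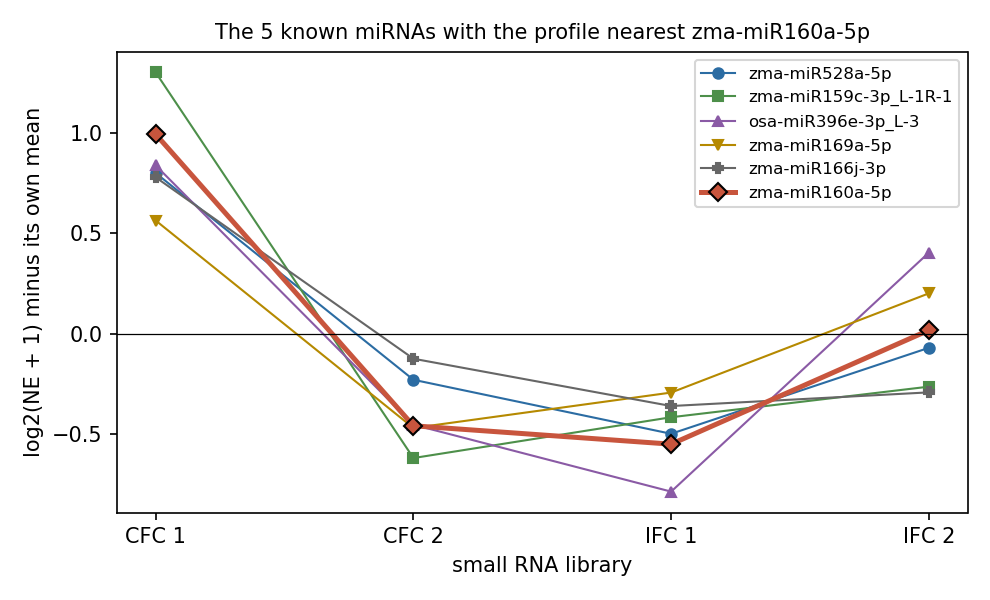
Log2(NE + 1) minus its own mean over the 4 libraries (y axis) in each small RNA library (x axis), for zma-miR160a-5p and the 5 known miRNAs with the nearest profile. All 6 lines are highest in CFC replicate 1, where zma-miR160a-5p stands at 0.99, and lower in the other 3 libraries. The choice by nearest profile favours this shape.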

How the data were processed

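The authors trimmed and filtered the small RNA reads with ACGT101-miR, mapped them to miRBase hairpins of maize and other species, and deposited normalized expression in RPM, the reads of a miRNA scaled to the clean reads of its library. Between 68.9% and 74.5% of the NE values of a library were whole multiples of its lowest common step (tolerance 0.001). This counts the 24 to 42 values of 0 in a library as whole, so the share among the other values is lower. NE was therefore not turned back into reads. Taken as 1 read, that step implies 873087 to 1394658 reads per library, below the valid reads the study gives, so the reads named in the text are nominal. The degradome tags were run through CleaveLand by the authors, who deposited the signal at each site in TPB, with a peak category, an alignment score and a CleaveLand p-value. One tag implies 16680835 reads in CFC and 16915044 in IFC. The score and the p-value were deposited by the authors and used as a description. Columns WT in the tables are the CFC ovaries. A further table of predicted targets was not used.

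IFC was set against CFC with limma 3.58.1 (R 4.3.3) on log2(NE + 1), in a two-sided test with no block. It took in the 145 known miRNAs that exceeded an NE of 1 in some library, and p-values were adjusted over them by Benjamini-Hochberg. Residual degrees of freedom were 2, and the prior added 13.7. TPB ratios have exact conditional 95% intervals and shares exact Clopper-Pearson intervals, from scipy 1.17.1, which cover counting error only. Python 3.11.15 with numpy 2.4.6 gave the rest, and matplotlib 3.10.9 drew the figures. The fit was repeated with a pseudocount of 0.5 or 5, without the filter or with one at an NE of 5, 2 other scalings, a trend with a robust fit, the replicate block and leaving out each replicate. TPB was rescaled in 3 ways, one of them chosen after seeing the data.

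The text names all miR160 sequences and sites, and the guide strands of miR167, miR390 and miR393 with their sites on auxin genes. It also names the 5 miRNAs nearest in profile and the 3 strongest degradome sites. The members, lists and this rule were chosen with earlier results of these data known.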

Additional observations from a re-analysis of the deposited data

How the results depend on the processing

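No miR160 strand was called under any of the 12 alternatives of the limma fit (11 for cca-miR160b_L+3), which left 0 known miRNAs called throughout and 0 to 23 with an unadjusted p under 0.05, against 1 in the fit reported. The adjusted p of zma-miR160a-5p ranged from 0.298 to 0.999, that of osa-miR160a-5p_L+1 from 0.242 to 0.999 and that of cca-miR160b_L+3 from 0.888 to 0.999. When each replicate was left out in turn, the log2 fold change ranged from -1.26 to 0.19 for zma-miR160a-5p, from -2.90 to -0.07 for osa-miR160a-5p_L+1 and from -0.44 to 0.32 for cca-miR160b_L+3. Among the other settings, scaling to the sum of known miRNAs moved zma-miR160a-5p most, from -0.53 to -0.22. A pseudocount of 5 moved osa-miR160a-5p_L+1 most, from -1.48 to -0.85. The sign turned without CFC replicate 1 for zma-miR160a-5p (0.19) and for cca-miR160b_L+3 (0.13). For cca-miR160b_L+3, at -0.06 in the fit reported, it also turned without IFC replicate 1 (0.32) and with NE scaled to the sum of known miRNAs (0.077). The filter at an NE of 5 left no value for this strand. A left-out replicate leaves 1 library in its phenotype, whose spread is taken from the other.

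The guide sum ratio ranged from 0.403 to 1.17 over the left-out replicates, with 1.17 without CFC replicate 1. It was 0.599 as deposited, 0.609 with median-of-ratios scaling and 0.731 with NE scaled to the sum of known miRNAs. With only the strand of highest mean NE it was 0.621. In this balanced design the replicate block cannot change a log2 fold change, so -0.53 for zma-miR160a-5p and -1.48 for osa-miR160a-5p_L+1 stood by construction. With the block the adjusted p of each was 0.999 (limma). Deviations of same-numbered libraries had a correlation of 0.25 across 145 miRNAs, which are not independent. The phenotypes were sampled from the same ear, but the labels do not say that a replicate number marks a shared ear. The numbers were therefore not taken to pair the libraries in the fit reported.

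The TPB ratio of the main site of GRMZM2G159399 was 1.01 when rescaled to the sum over all pairs, and 1.01 when rescaled to the sum over the pairs of other families, the alternative chosen after seeing the data. With the median ratio set to 1 it was 0.837. The ratio of GRMZM2G005284 rose to 1.58, 1.89 and 1.91 under the median, all-pair and other-family rescalings, inside a very wide interval, and both shares of the minor site stayed within theirs. Counted per miRNA, transcript and site, the main site still ranked first, and the other 2 sites moved to ranks 51 to 286. With 5 tags at GRMZM2G005284 and an NE under the nominal 3 reads for 2 strands in most libraries, low values limit both.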

Other observations

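Of the 23 sequences in the expression table whose names mark extra bases at the 5′ end, 17 carried the bases of their listed hairpin there, and 6 did not. Both longer miR160 guide strands were among the 6, together with zma-miR164b-3p_L+2, osa-miR159c_L+1R-1_1ss2AC, osa-miR396e-5p_L+1 and bdi-miR827-5p_L+2_2ss13TG19CT. Of these 6, 5 were named after a miRNA of another species. The authors mapped reads to maize hairpins first and only the remaining ones to other species. This order can favour such names for sequences that differ from maize hairpins, which was not tested.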
